A study of Mus musculus with 10 samples.

Results

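The genes described here, 6 by name and all known for falling with developmental age, were looked up in a table of messenger RNA levels of the developing mouse neocortex: the chromatin genes Hmga1 and Hmga2, the RNA-binding gene Lin28b, and the family Igf2bp1, Igf2bp2 and Igf2bp3. The table lists 6147 genes, and 4 of the 6 names have a row in it: Hmga2, Igf2bp1, Igf2bp2 and Igf2bp3. Hmga1 and Lin28b were not analysed here. The neocortex came from CD1 mice, an outbred laboratory strain, all wild type, at the embryonic days E12.5, E14, E15.5 and E17 and on the day of birth, P0, with 2 libraries at each stage and 10 in all. The values are TPM, the share of a gene's transcripts among all transcripts per library, corrected for gene length. The series calls the 2 libraries of a stage biological duplicates, but no label says which animals or litters were used or how many were pooled, so the p-values below measure only the spread between these libraries. The genes were chosen by name with their fall in TPM over these stages in these same libraries already known, Hmga2 as one of the largest falls of the table. Their levels and changes are therefore a description and carry no p-value.

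Genes that control the timing of developmental steps are called heterochronic. Hmga2 encodes an architectural protein that binds AT-rich DNA and bends chromatin, and it supports self-renewal of neural stem cells in the fetal brain. The Igf2bp genes encode RNA-binding proteins, named after the mRNA of the growth factor Igf2, that bind mRNAs in the cytoplasm and set how long they last, where they go and when they are translated. Lin28 proteins block the maturation of the microRNA family let-7, and let-7 in turn represses mRNAs that pair with its seed, the bases near its 5′ end. Lin28b, Hmga2 and the Igf2bp genes are textbook let-7 targets, and together these parts form a circuit that is known to switch as fetal progenitors age.

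The let-7 microRNAs and their matches in the members' mRNAs are shown first because they are the feature that links the 2 gene families in that circuit. MicroRNA sequences are RefSeq entries on GRCm38.p6, read 5′ to 3′, with bases 2 to 8, the seed, in capitals.
let-7a-5p: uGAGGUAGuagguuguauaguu
let-7b-5p: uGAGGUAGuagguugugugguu
let-7i-5p: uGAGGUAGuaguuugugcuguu
miR-98-5p: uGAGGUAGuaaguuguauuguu
The family's 13 mature entries hold 11 distinct sequences, of which 10 share the seed GAGGUAG and differ outside it. The exception is let-7j, with the seed GAGGUAU. The 7-base match searched in the transcripts was CTACCTC, the reverse complement of the common seed, on the mRNA strand of the longest annotated 3′ UTR of each gene (GENCODE M21, GRCm38). MicroRNAs themselves were not measured in these libraries.

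All 4 genes of the table lie on the minus strand of GRCm38. Hmga2 (ENSMUSG00000056758) spans chr10:120361275-120476469 and has 4 matches in its 3′ UTR of 3014 bases. Each is printed with the 15 bases before it and 1 base after it, and capitals mark the match.
Hmga2 chr10:120364224-120364246: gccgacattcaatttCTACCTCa
Hmga2 chr10:120362987-120363009: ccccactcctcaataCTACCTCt
Hmga2 chr10:120362549-120362571: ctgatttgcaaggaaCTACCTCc
Hmga2 chr10:120361691-120361713: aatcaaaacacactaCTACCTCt
Igf2bp1 (ENSMUSG00000013415) spans chr11:95957163-96005940 and also has 4 matches, in a UTR of 6337 bases.
Igf2bp1 chr11:95961778-95961800: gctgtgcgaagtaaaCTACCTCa
Igf2bp1 chr11:95959357-95959379: cagcagtgctattaaCTACCTCa
Igf2bp1 chr11:95958763-95958785: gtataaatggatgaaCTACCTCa
Igf2bp1 chr11:95958140-95958162: acttttggttttaatCTACCTCt
Igf2bp2 (ENSMUSG00000033581), at chr16:22059009-22163299, and Igf2bp3 (ENSMUSG00000029814), at chr6:49085223-49214957, have 1 match each, in UTRs of 1784 and 2119 bases.
Igf2bp2 chr16:22059473-22059495: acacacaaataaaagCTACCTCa
Igf2bp3 chr6:49086787-49086809: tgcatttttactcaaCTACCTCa
An A directly after the match, which is known to strengthen let-7 pairing sites, follows 6 of these 10 matches: 1 in Hmga2, 3 in Igf2bp1 and 1 each in Igf2bp2 and Igf2bp3. In the annotation, Lin28b has 4 matches and Hmga1 has 1.

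The same 7 bases were counted in 6043 tested genes with an annotated 3′ UTR. At least 1 match was present in 10.2% of them, at least 1 followed by A in 3.51%, and 4 or more in 0.0662%, which is 4 genes: Hmga2, Igf2bp1, Hic2 and Mcf2l. Long UTRs hold more matches by length alone. Among genes with a UTR within 25% of the length of Igf2bp1, 32.9% of 304 had at least 1 match, and among those near the length of Hmga2, 13.9% of 1061. In these 2 groups 4 or more matches were found in 0% and 0.0943% of genes. Near the lengths of Igf2bp2 and Igf2bp3 the shares were 11.2% of 1183 and 12.1% of 1176 genes. A match is a description of the sequence and not evidence that let-7 binds there.

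Some features of the libraries bear on the values. The 2 libraries at E17 stand apart from each other: the SD of the log2 difference between them over all tested genes was 0.285, against 0.0880 to 0.176 at the other stages. No source used here gives the numbers of reads, so the counting error of low values is unknown. Of 11 neocortex markers, 7 are in the table, and their summed level lay between 808 and 1318 TPM in every library, with none at 0. Markers of tissue around the cortex were high at the first 2 stages and low afterwards. Summed TPM of 6 meningeal markers was 267 to 271 at E12.5, 140 to 154 at E14 and 3.52 to 8.39 from E15.5 on. For the 2 choroid plexus markers in the table it was 303 to 452, then 1405 to 1517, then 3.07 to 5.26. For the 3 of 10 red blood cell markers in the table it was 4323 to 4494, then 1880 to 1975, then 2.04 to 9.84. Most of it was Hbb-y, with means of 4349 TPM at E12.5 and 1907 at E14. This sum thus follows mainly 1 gene and does not measure the number of red blood cells. One of these, Hbb-bh1, was listed at 0 in both P0 libraries.

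Hmga2 mRNA stood at 247 and 222 TPM in the 2 libraries at E12.5, 79.8 and 79.0 at E14, 9.50 and 7.37 at E15.5, 3.79 and 1.63 at E17, and 0.637 and 0.580 at P0. No library of a later stage reached any library of an earlier one. The mean thus went from 234 ± 17.7 TPM (SD, n = 2) at E12.5 to 0.608 ± 0.0403 at P0, 0.259% of the starting level and 385 times lower. Most of the level was gone by E15.5, at 3.60% of the E12.5 mean. On the log2(TPM + 1) scale, which understates changes of low values, the whole change was -7.19 with a standard error (SE) of 0.22, the fall ranked 2 among 6048 tested genes. Ranked by TPM within the table, Hmga2 moved from place 628 at E12.5 to place 6027 at P0. The RNA came from the spun lysate of neocortex and not from sorted cells, so fewer cells of a type and less RNA per cell cannot be told apart. This holds for every change given here, and levels in the unspun tissue were not measured.

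The steps of Hmga2 were unequal. The log2 change was -1.55 in the first step, to E14, -3.10 in the next, to E15.5, then -1.40 to E17 and -1.14 to P0, each with an SE of 0.22. The step from E14 to E15.5 alone made up 43.1% of the whole log2 change. In the ranking of falls over all tested genes Hmga2 stood at place 2, 12, 1 and 108 in these 4 steps. The step to E17 depended on the library used there: it was -0.97 without the second E17 library, and -1.84 without the first. The step to P0 was -1.58 without the second E17 library and -0.71 without the first. The antisense genes 1700006J14Rik and 9230105E05Rik overlap Hmga2, and the antisense gene Gm29202 overlaps Igf2bp1. The kit keeps the strand, but no source used here gives the strand setting of the counting.

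**Figure D1:**
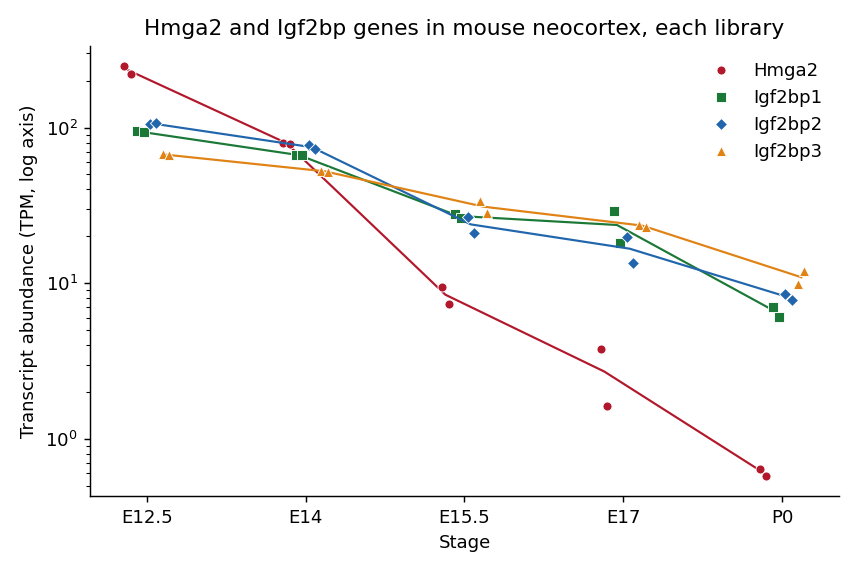
TPM of Hmga2, Igf2bp1, Igf2bp2 and Igf2bp3 (log axis) in each of the 10 libraries by stage, with 1 point per library and a line through the stage means. Hmga2 starts above the other genes at 234 TPM and ends below 1 TPM, while the 3 Igf2bp genes end between 6.03 and 11.9 TPM.

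Igf2bp1, also known as Imp1 or Zbp1, carries mRNAs such as that of beta-actin and supports growth of the fetal progenitor pool. Its mRNA was at 94.99 and 92.97 TPM at E12.5, 66.6 and 66.3 at E14, 27.8 and 26.3 at E15.5, 29.2 and 18.1 at E17, and 7.07 and 6.03 at P0. The E17 libraries lay on both sides of the E15.5 libraries, and the other neighbouring stages did not overlap. The stage means were 94.0 ± 1.43, 66.4 ± 0.175, 27.1 ± 1.07, 23.7 ± 7.83 and 6.55 ± 0.736 TPM (SD, n = 2). The whole log2 change was -3.66 (SE 0.17), and its steps were -0.49, -1.27, -0.22 and -1.67. The course thus had 2 drops, of 34.6% of the whole at E14 to E15.5 and 45.8% at E17 to P0, with a level part between them. The step to E17 went the other way, at 0.11, when the second E17 library was left out, and was -0.55 without the first. Likewise the last step was -2.003 without the second E17 library and -1.34 without the first.

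Igf2bp2, the family member studied most for its part in metabolism and also expressed in neural precursors, stood at 105 and 107 TPM at E12.5, 77.0 and 72.5 at E14, 26.6 and 21.1 at E15.5, 19.9 and 13.4 at E17, and 8.47 and 7.76 at P0. Libraries of neighbouring stages did not overlap. Means were 106.0 ± 1.08, 74.7 ± 3.19, 23.9 ± 3.85, 16.7 ± 4.57 and 8.12 ± 0.506 TPM (SD, n = 2). Its log2 changes were -0.50, -1.61, -0.51 and -0.93 in the 4 steps, and -3.55 overall (SE 0.16 each). As in Hmga2, the step from E14 to E15.5 was the largest of the 4, at 45.4% of the whole. The step to E17 was -0.24 without the second E17 library and -0.78 without the first.

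Igf2bp3, a fetal family member that is reactivated in many tumours, was at 67.3 and 66.6 TPM at E12.5, 52.9 and 51.8 at E14, 33.6 and 28.4 at E15.5, 23.8 and 23.1 at E17, and 9.91 and 11.9 at P0. Its stages did not overlap either. Means were 66.9 ± 0.470, 52.3 ± 0.763, 31.0 ± 3.66, 23.4 ± 0.469 and 10.9 ± 1.43 TPM (SD, n = 2), so that 16.3% of the E12.5 level was left at P0, against 6.97% for Igf2bp1 and 7.66% for Igf2bp2. The log2 changes were -0.35, -0.74, -0.39 and -1.04 in the 4 steps and -2.52 overall (SE 0.11 each). The last step was the largest, at 41.3% of the whole. The 3′ end of Igf2bp3 overlaps Malsu1, which lies on the other strand and was at 19.3 to 26.5 TPM in every library. If the counting ignored strand, reads in the overlap cannot be told apart.

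The order of the 4 levels changed between E14 and E15.5. At E12.5 it was Hmga2, Igf2bp2, Igf2bp1, Igf2bp3 from high to low, with no overlap between neighbours in the order. At E14 the order was the same, but Hmga2 at 79.0 to 79.8 TPM lay close to Igf2bp2 at 72.5 to 77.0. At E15.5 Igf2bp3 was highest at 28.4 to 33.6 TPM, and Igf2bp1 and Igf2bp2 overlapped below it. At E17 Igf2bp1 overlapped both other family members. At P0 Igf2bp3 was followed by Igf2bp2 and Igf2bp1 without overlap. Hmga2 was lowest in all 6 libraries from E15.5 on.

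The summed level of the Igf2bp family was 267 and 266 TPM at E12.5, 196 and 191 at E14, 88.0 and 75.9 at E15.5, 72.8 and 54.6 at E17, and 25.5 and 25.7 at P0. Its make-up shifted towards Igf2bp3. The share of Igf2bp3 in the sum was 25.1% at E12.5 and 27.1% at E14, then 37.8% (E15.5), 37.4% (E17) and 42.7% (P0), and every library from E15.5 on had a higher share than every library before. The share of Igf2bp2 was 39.7% and 38.6% at the first 2 stages and between 25.9% and 31.7% later. Igf2bp1 held between 33.1% and 36.6% up to E17 and 25.6% at P0. The level of Hmga2 for each TPM of the summed family went from 0.878 at E12.5 to 0.410, 0.103, 0.0409 and 0.0238 at the following stages.

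**Figure D2:**
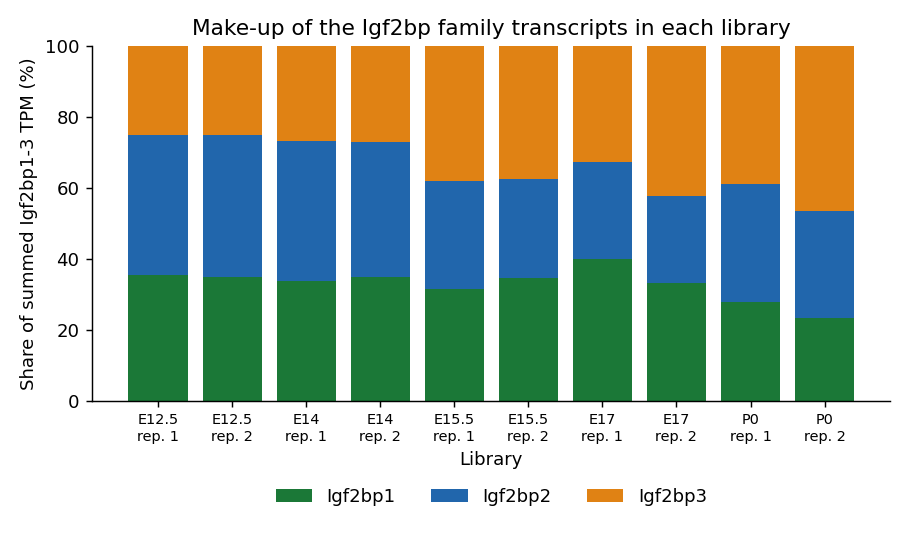
Share of Igf2bp1, Igf2bp2 and Igf2bp3 in their summed TPM (percent, vertical axis), as stacked bars for each of the 10 libraries by stage. Igf2bp3 goes from 25.1% of the sum at E12.5 to 42.7% at P0, and the 2 libraries at E17 differ more than those at the embryonic stages before.

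Each step was set against all genes of the table. A gene was called where limma, a linear model with a shared estimate of spread, gave a Benjamini-Hochberg adjusted p under 0.05 over the 6048 tested genes, all 4 members among them. Since the members were picked for their fall, nothing is read from how many were called. From E12.5 to E14, 1 of 4 was called lower (Hmga2), where 4.78% of all tested genes were, and all 4 lay lower without overlap, as did 45.4% of genes. At the step to E15.5 all 4 were called lower, against 33.3% of genes, and none overlapped, against 56.1%. At the step to E17, 3 were called lower, all but Igf2bp1, against 10.6%, and these 3 had no overlap, against 29.7%. At the step to P0 all 4 were called lower, against 28.8%, and none overlapped, against 39.9%. Over the whole span, E12.5 to P0, all 4 were called lower, against 51%, without overlap, against 58.4%, while 27.1% of genes were called higher. In either direction, 8.73%, 51.7%, 25% and 41.7% of genes were called in the 4 steps in turn and 78.2% over the whole span. Over all genes the median change from E12.5 to P0 was -0.27, and relative to it the members changed by -6.92 (Hmga2), -3.38 (Igf2bp1), -3.28 (Igf2bp2) and -2.24 (Igf2bp3).

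Some of these calls changed when a single library was left out, also when that library was not of the stages compared. The fit pools the spread of a gene over all stages, so every library enters the SE of every step. From E12.5 to E14 all 4 members were called lower when either E17 library was left out. At the step to E17 the call of Igf2bp2 was lost on leaving out any 1 of 9 libraries, all but the first at E17, and that of Igf2bp3 on leaving out either E12.5 library or the first at E15.5. With only the 4 libraries compared, 0 members were called at this step. The members were picked for their fall, so nothing is read from whether a call held. A mean that was lower at every step was found for all 4 members and for 21.4% of tested genes. All members but Igf2bp1, 3 in number, had no overlap at any step, as did 9.36% of genes.

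**Figure D3:**
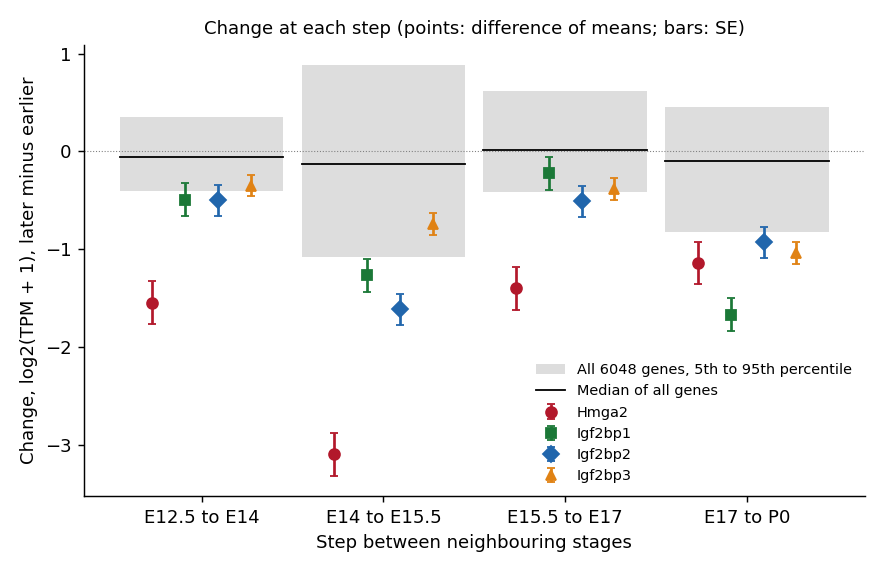
Difference of log2(TPM + 1) between neighbouring stages for the 4 genes, with the SE of the fit as error bars, the median of all tested genes as a black line and their 5th to 95th percentile as a grey band. The SE of a gene is pooled over the 5 stages and so is the same in every step. The largest step of Hmga2 and Igf2bp2 is E14 to E15.5, at -3.10 and -1.61, and that of Igf2bp1 and Igf2bp3 is E17 to P0, at -1.67 and -1.04.

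The step from E14 to E15.5 coincides with the loss of the meningeal, choroid plexus and red blood cell markers, whose part in the result was not tested. The 6 meningeal markers had a median change of -3.77 there. From E15.5 to P0, where the summed levels of these markers were low throughout as given above, the members changed by -2.54 (Hmga2), -1.90 (Igf2bp1), -1.44 (Igf2bp2) and -1.43 (Igf2bp3), with no overlap between the 2 stages, as in 48.8% of genes. All 4 were called lower in this comparison, as were 30.7% of genes, while 19.5% were called higher and 50.2% either way. The comparison was added after seeing the data. As the members were picked for their fall in these libraries, nothing is read from these calls.

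The members' courses were also set beside those of dividing progenitors. All 15 proliferation genes tested, such as Top2a and Mcm2, were called lower in every step and had a median change of -3.63 from E12.5 to P0. Of 10 radial glia markers, 8 were called lower and 2 higher, with a median of -2.86, and all 8 neuron markers were called higher, with a median of 2.23. Measured as the member's log2 level minus the median of the proliferation genes in the same library, Hmga2 went from 1.13 at E12.5 to 0.11, -1.78, -2.45 and -2.46. The stage means of Igf2bp1 stayed between -0.23 and 0.31 on that measure, and those of Igf2bp2 between -0.38 and 0.04. Igf2bp3 went from -0.66 at E12.5 to 0.43 at P0. The 2 E17 libraries gave -2.87 and -2.02 for Hmga2, -0.01 and 0.64 for Igf2bp1, and -0.42 and 0.10 for Igf2bp2. The near-equal values of Hmga2 at E17 and P0 come with the added 1 TPM: the log2 ratio of its mean TPM from E17 to P0, with nothing added, was -2.15, against a median of -1.15 for the proliferation genes. In stage means Hmga2 thus moved from above the proliferation median to below it. Igf2bp1 and Igf2bp2 stayed near it, and Igf2bp3 moved from below to above it. Against the radial glia median, all 4 stood lower at P0 than at the start: from 0.79 to -4.38 for Hmga2, -0.52 to -2.15 for Igf2bp1, -0.35 to -1.88 for Igf2bp2 and -1.01 to -1.495 for Igf2bp3.

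**Figure D4:**
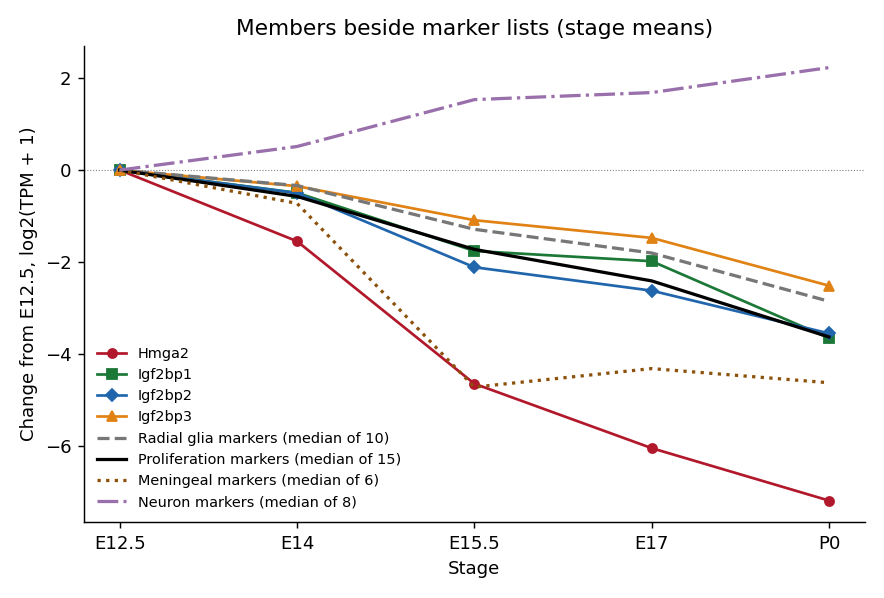
Change of log2(TPM + 1) from the E12.5 mean for the 4 genes by stage, with the medians of the proliferation, radial glia, meningeal and neuron markers drawn beside them. Hmga2 leaves the proliferation and radial glia medians behind by E15.5, whereas Igf2bp1 and Igf2bp2 end near the proliferation median of -3.63 and Igf2bp3 ends above it at -2.52.

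The genes with the course most like each member were found by Pearson correlation of log2 levels over the 10 libraries, among 5806 genes. The points share their libraries and the ordered stages, so high values are common: between 786 and 1023 genes reached 0.95 with a given member. For Hmga2 the closest included Mre11a (r = 0.998), of the DNA break sensor complex, and Psme3 (0.997), a proteasome activator. For Igf2bp1 they were Cdon (0.999), a co-receptor of Sonic hedgehog, Clic4 (0.998) and the cyclin Ccnk (0.998). For Igf2bp2 they were Shisa2 (0.999), Ddx11 (0.998), a DNA helicase of sister chromatid cohesion, and the imprinted gene Peg12 (0.998). For Igf2bp3 all 3 act in cell division: Prc1 (0.998), which bundles the central spindle, Knstrn (0.998), a kinetochore protein, and Ccna2 (0.997), cyclin A2. Among the members themselves r ran from 0.953 for Hmga2 and Igf2bp1 to 0.993 for Hmga2 and Igf2bp2. A high r shows a like shape and not a like size: Psme3 changed by -1.15 from E12.5 to P0, where Hmga2 changed by -7.19.

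The other genes of the circuit were counted from lists in which no member was included. The Lin28 and let-7 machinery covers microRNA processing, export and effector genes. Of its 27 names, some of them alternative names of 1 gene, 21 are in the table, and from E12.5 to P0, 15 were called lower, 0 higher and 6 not, against 51% lower and 27.1% higher over all tested genes, with a median of -0.70 against -0.27. The falls were largest for Ago1, an Argonaute that carries microRNAs, from 322 to 106 TPM (log2 change -1.60, SE 0.17, limma adjusted p = 3.59e-06), and Ran, the GTPase of nuclear export, from 1194 to 408 TPM (-1.55, SE 0.07, limma adjusted p = 3.59e-09). The enzymes Zcchc11, Zcchc6 and Dis3l2, which act directly on precursors bound by Lin28 and are named here after their values were seen, differed. Zcchc11, which adds uridines to pre-let-7, was called lower, from 26.6 to 10.96 TPM, while its relative Zcchc6 was at 20.2 and 18.4 TPM and the exonuclease Dis3l2 at 14.01 and 12.16 TPM, neither of them called. For E12.5 to P0, quantile normalization gave 12 lower and 0 higher in this list, and median-of-ratios scaling 13 lower and 1 higher. From E15.5 to P0, 9 of the 21 were called lower, and 30.7% of all genes were.

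Of 40 other known let-7 targets, 20 are in the table: 16 were called lower from E12.5 to P0, 1 higher and 3 not, with a median of -1.04, where 51% of all tested genes were called lower and 27.1% higher and the median was -0.27. The falls were largest for the cell cycle gene Ccnd2, from 2735 to 204 TPM (log2 change -3.74, SE 0.09), and Nr2e1, the stem cell receptor Tlx, from 195 to 18.6 TPM (-3.33, SE 0.15). The limma adjusted p was 2.98e-11 for Ccnd2 and 2.78e-09 for Nr2e1. Under quantile normalization the split was 14 lower and 3 higher. Most of these genes have a match to the let-7 seed in the UTR used (14 of 20), but Ccnd2 and Nr2e1 have none there. Dicer1 and Rrm2 also stand in another of the lists.

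Over all other tested genes, the median change differed little between 0, 1 and 2 let-7 matches. The median change from E12.5 to P0 was -0.27 for 5428 genes with no match, -0.32 for 547 with 1 and -0.29 for 56 with 2, and 50.9%, 51.7% and 51.8% of these were called lower. Only 6 genes had 3 matches, with a median of -1.01 and 83.3% called lower. Median UTR length was 1185, 2396 and 3479 bases with 0, 1 and 2 matches. The groups were not matched for length. The 2 other genes with 4 or more matches did not resemble Hmga2 and Igf2bp1. Hic2, a transcriptional repressor with 4 matches, changed by -0.33 (SE 0.18, limma adjusted p = 0.113), and Mcf2l, a guanine nucleotide exchange factor with 7, was called higher (1.53, SE 0.12, limma adjusted p = 3.48e-07).

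**Figure D5:**
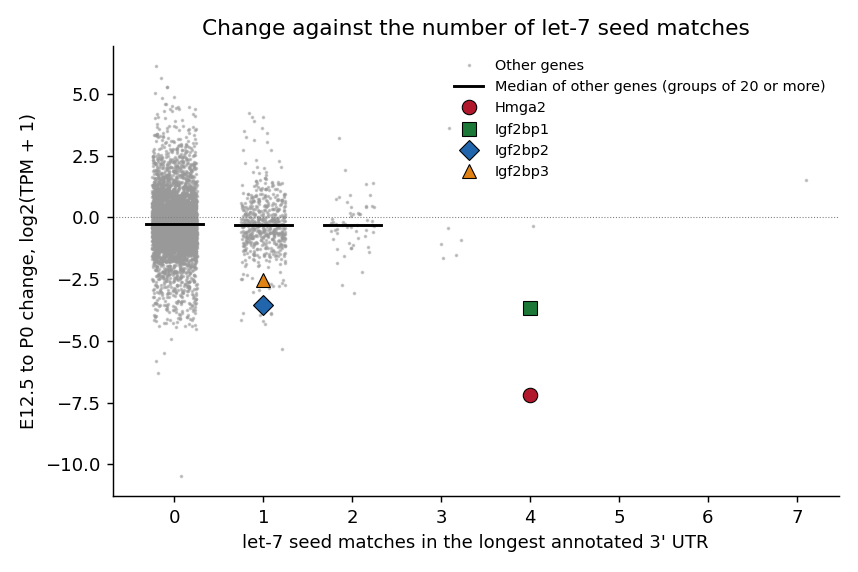
Change of log2(TPM + 1) from E12.5 to P0 against the number of let-7 seed matches in the 3′ UTR, with 1 point per tested gene (spread sideways at random within each number), the 4 members marked and the median of other genes drawn where a group has 20 or more. The medians lie between -0.32 and -0.27 for 0 to 2 matches, while Hmga2 and Igf2bp1 have 4 matches each and changed by -7.19 and -3.66.

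The partners of the Igf2bp proteins and the m6A pathway, the writers, erasers and other readers of the mRNA mark that Igf2bp proteins recognise, had 24 of 25 names in the table. From E12.5 to P0, 18 were called lower, 1 higher and 5 not, with a median of -0.63, against 51% lower, 27.1% higher and a median of -0.27 over all tested genes. Rbm15, an adaptor of the m6A writer, went from 14.7 to 2.99 TPM (log2 change -1.997, SE 0.14), and Dhx9, a helicase found in Igf2bp1 particles, from 114 to 34.2 TPM (-1.73, SE 0.14). Stau2, which carries RNA into dendrites, was called higher, from 50.1 to 112 TPM (1.14, SE 0.08). The limma adjusted p was 1.21e-07 for Rbm15, 3.02e-07 for Dhx9 and 7.97e-08 for Stau2. Median-of-ratios scaling gave 15 lower and 3 higher.

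The few listed mRNAs that Igf2bp proteins are known to bind changed in both directions. Of 12 names 6 are in the table. From E12.5 to P0, 3 were called higher, 1 lower and 2 not, against 27.1% higher and 51% lower over all tested genes. Their median change was 0.42, against -0.27 over all tested genes. Mapt, the mRNA of the microtubule protein tau, was called higher, from 86.6 to 1048 TPM (log2 change 3.58, SE 0.11, limma adjusted p = 1.39e-10). Actb, of beta-actin, was at 1931 and 1979 TPM and not called. Igf2, which gave the family its name, was at 688 to 759 TPM at E12.5, 612 to 616 at E14, 76.1 to 82.3 at E15.5, 109 to 127 at E17 and 38.0 to 47.6 at P0, and was called lower from E12.5 to P0 (-4.05, SE 0.11, limma adjusted p = 5.68e-11). Its largest step fell between E14 and E15.5, where the meningeal and choroid plexus markers also fell. Their part in the result was not tested.

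Among other proteins of the high mobility group, which are abundant binders of DNA or nucleosomes and share only the group name with Hmga2, 9 of 17 names are in the table. From E12.5 to P0, 8 were called lower and 1 higher, with a median of -1.40, against 51% and 27.1% of all tested genes and a median of -0.27. Hmgb2, typical of dividing cells, fell from 1103 to 65.4 TPM (log2 change -4.06, SE 0.08) and Hmgn5, a nucleosome binder, from 69.6 to 12.4 TPM (-2.41, SE 0.17). The limma adjusted p was 1.9e-11 for Hmgb2 and 1.32e-07 for Hmgn5. The 1 call of a higher level was lost without the first E12.5 library or without the second P0 library. From E15.5 to P0, 8 of the 9 were called lower and 0 higher, against 30.7% and 19.5% of all tested genes.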

How the data were processed

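Per the labels' protocols, frozen neocortex was pulverised and lysed in detergent and spun, and RNA from the supernatant (TRIzol LS) went into stranded mRNA libraries. Per the file headers, the authors deposited TPM, 1 column for each library. The submitters' processing notes name STAR, Subread and the build GRCm38.p5. Versions, annotation, gene lengths, the strand setting and the rule for listing genes: not given in the sources used here. The listed genes hold 68.9% to 71.7% of each library's total, so the authors' TPM were scaled over more genes. Since TPM are shares, abundant genes that rise push the others down.

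Genes with a mean under 1 TPM were left out, and log2(TPM + 1) of the rest was fitted with limma 3.58.1 (R 4.3.3), with 1 mean for each of the 5 stages, 5 residual degrees of freedom and a variance trend. Benjamini-Hochberg adjustment covered 6048 genes, called under 0.05. The fit was tested on simulated data. The 3′ UTR sequences came from GENCODE M21 (GRCm38) and microRNAs from RefSeq. All other work was done in Python 3.11.15 with numpy 2.4.6, pandas 2.3.3 and, for plots, matplotlib 3.10.9. All value columns were used (0 left without a sample).

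The members and the gene lists were chosen with earlier results of these data known. Named were the members, the 3 genes most alike each (mean of at least 5 TPM), and in every list the strongest called rise and the 2 strongest called falls. A few genes that this rule names are not reported here. Replicate numbers came from the titles and were not used to pair libraries in the main fit. Alternatives were other pseudocounts, filters and scalings, a replicate block, no variance trend, only the 4 libraries compared, and leaving out each library.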

Additional observations from a re-analysis of the deposited data

How the results depend on the processing

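From E12.5 to P0 all 4 members were lower under every alternative, but they were picked for that fall, so nothing is read from this. For Hmga2 the change of -7.19 became -8.37 with a pseudocount of 0.1 TPM and -4.52 with 10 TPM, and the ratio of means with nothing added, computed after seeing the data, was -8.59, as the added value alone sets for a gene that ends under 1 TPM. With 10 TPM the changes were -2.65 (Igf2bp1), -2.68 (Igf2bp2) and -1.88 (Igf2bp3), with quantile normalization -3.28, -3.20 and -2.18, and with median-of-ratios scaling, which moves the median of all genes to -0.01, -3.40, -3.29 and -2.25. From E15.5 instead of E12.5, a comparison added after seeing the data, they were -2.54 (Hmga2), -1.90, -1.44 and -1.43, and 9 machinery genes were called in place of 15. Leaving out each library gave -2.64 to -2.39 for Igf2bp3. The only change of sign was Igf2bp1 from E15.5 to E17, 0.11 without the second E17 library and -0.55 without the first. The genes called over the whole table were 528 from E12.5 to E14, with 901 under quantile normalization, 2479 from only the 4 libraries compared and 65 to 1769 on leaving out each library. They were 1514 from E15.5 to E17, with 120 from only 4 libraries and 466 to 3164 on leaving each out, and 2525 from E17 to P0, with 1126 and 1641 to 3767. With only 4 libraries, 0 members were called from E15.5 to E17. From E17 to P0 Hmga2 changed by -1.87 with 0.1 TPM and -0.26 with 10 TPM added, the latter not called. The differences between the 2 libraries of a stage correlated across stages at -0.37 to 0.11, which cannot show whether same-numbered libraries are paired. With the replicate block 462, 1411 and 2371 genes were called in these 3 steps and the 4 members' changes were the same. Hmga1's single let-7 match is absent from the transcript with the longest coding sequence, and 6-base matches numbered 7 in Hmga2, 6 in Igf2bp1, 2 in Igf2bp2 and 1 in Igf2bp3. With 2 libraries a stage and depth unknown, small steps are poorly resolved.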
